A study of Homo sapiens with 19 samples.

Results

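V5 chromatin immunoprecipitation with sequencing (ChIP-seq) was compared between K185R E2F1 cells given the LSD1 inhibitor GSK2879552 and untreated K185R E2F1 cells. The members were all intervals of enriched reads in the 2 deposited lists, 9899 with GSK2879552 and 55681 without. Together they are 65580 of the 203381 intervals in the 10 lists of the series. A GSK2879552 interval with no overlap in the untreated list was counted as gained, an untreated interval with no overlap in the GSK2879552 list as lost, and an overlap of at least 1 base as shared. Gained and lost describe presence in a list and not a tested change.

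The cells were C4-2, an established prostate cancer cell line, carrying a tetracycline-controlled E2F1 whose lysine at the K185R position is replaced by arginine. Treated cells received 50 uM GSK2879552 for 24 hours. Both groups were grown in 5% charcoal-stripped serum without doxycycline and were labelled with 2 libraries each, merged into 1 list per group according to the interval names. With 1 list per group there is no replicate check, no test between groups was possible, and the 95% Wilson intervals given below cover counting error over intervals only.

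The names of the intervals in both lists carry the word siNTC, which the treatment labels do not mention. Those of the 4 V5 lists labelled with doxycycline, used below for recurrence, carry siRB instead. The groups follow the labels, so what is said of doxycycline lists holds for them as labelled. Whether the cells made tagged E2F1 in the absence of doxycycline is not stated in the sources used here, nor whether the line is 1 clone. A V5 interval is therefore described as an interval and not as bound E2F1. Intervals were set against RB ChIP-seq lists from untreated C4-2 cells (9146 intervals) and from untreated VCaP cells, another prostate cancer line (17026 intervals).

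E2F1 is a transcription factor that drives genes of the cell cycle and DNA replication, and RB is a pocket protein known to bind E2F factors and hold their target genes in check. LSD1 (KDM1A) is a demethylase that removes methyl groups from histone H3 and from some other proteins. The lysine replaced in K185R is known as a methylation site of E2F1 from which LSD1 can remove the methyl group, and GSK2879552 is an irreversible inhibitor of LSD1.

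The GSK2879552 list was shorter and shallower. Its length was 0.178 times that of the untreated list. The depth behind it, solved from the deposited fold enrichment and p-value of its intervals, was 1.02 reads per kilobase with GSK2879552 and 1.79 untreated, a ratio of 0.572 or −0.81 on the log2 scale. When reads of untreated intervals were scaled to the GSK2879552 depth by binomial expectation, 32762 intervals were expected to pass the lowest −log10 p of the GSK2879552 list, and the length ratio was 0.302. The list with GSK2879552 covered 1995927 bases and the untreated list 10080214. Inferred fragment lengths were 176 and 152 bases in the same 2 lists, and beyond that scaling the part that depth or fragment length has in the results below was not tested.

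Most intervals of both lists were weak. The median interval had 5 reads at its summit with GSK2879552 and 5 untreated. Intervals with 5 or fewer summit reads made up 73.3% of the GSK2879552 list and 65.8% of the untreated list. The authors' fold enrichment had a median of 4.86 with GSK2879552 and 4.71 untreated. It is the ratio of summit reads to local background after 1 read is added to both, so it also varies with depth. A small part of each list lay on local background of at least 10 times the lowest background of that list (the floor), here called high background: 482 intervals (4.87%) with GSK2879552 and 701 (1.26%) untreated. All other intervals are called low background.

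The 2 lists had few intervals in common. Of the GSK2879552 list, 7322 intervals were gained (74.0%, Wilson interval 73.1 to 74.8) and 2577 were shared (26.0%, 25.2 to 26.9). Of the untreated list, 53102 intervals were lost (95.4%) and 2579 were shared (4.63%, 4.46 to 4.81). There were thus 7.25 lost intervals for each gained one.

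By summit reads, gained intervals were the weakest of these classes. At most 5 summit reads stood behind 80.9% of gained intervals, 67.1% of lost intervals, and 51.7% of shared intervals in the GSK2879552 list (39.6% in the untreated list). The smallest width that its list allows was found in 69.5% of gained and 51.3% of lost intervals. Read numbers in this paragraph are not scaled for depth. Median fold was 4.81 in gained and 4.66 in lost intervals, so the order of these 2 classes by reads was not that by fold. Among low-background intervals, the strongest gained one had 18 summit reads and the strongest lost one 31. Those 18 reads scale to 31.5 at the depth of the untreated list. At 20 or more reads and low background there were 0 gained intervals, 26 lost intervals, and 43 shared intervals by their reads with GSK2879552 (134 by their untreated reads). A −log10 q of at least 5, a strict threshold on the authors' q-value, was met by 141 gained intervals (1.93%), 2552 lost intervals (4.81%) and 756 shared intervals of the GSK2879552 list (29.3%).

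How often an interval had a counterpart followed its strength in both directions. Low-background GSK2879552 intervals of 3 to 5 reads were found in the untreated list in 18.4% of cases, those of 8 to 9 reads in 57.7%, and those of 10 to 14 reads in 84.0%. With GSK2879552, 41 of 42 intervals of 15 to 19 reads and all 43 intervals of 20 or more reads had an untreated counterpart. The low-background sites of 15 or more reads in the GSK2879552 list were therefore nearly all sites of the untreated list too. By other measures some strong intervals were not. A −log10 q of at least 5 was met by 133 low-background gained intervals, and 10 high-background gained intervals had 20 or more reads. Low-background untreated intervals were found again with GSK2879552 in 2.79% of cases at 3 to 5 reads, 29.5% at 10 to 14 reads and 59.2% at 15 to 19 reads. At 20 to 29 untreated reads the share was 78.9% (Wilson interval 70.6 to 85.4), at 30 to 49 reads it was 94.1% (32 of 34), and at 50 or more reads it was 100% (12 of 12).

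**Figure D1:**
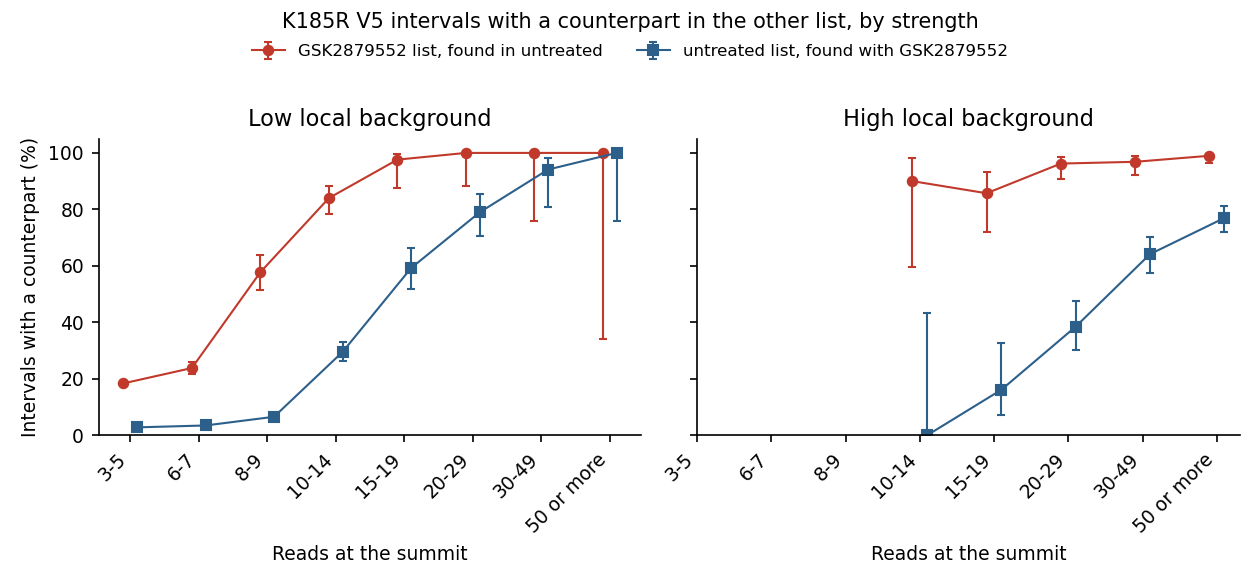
Share of intervals with a counterpart in the other K185R list (vertical axis, percent) by reads at the summit (horizontal axis), for the GSK2879552 list (red) and the untreated list (blue), with 95% Wilson intervals. At low background (left) GSK2879552 intervals reach 84.0% at 10 to 14 reads, where untreated intervals are at 29.5%, and both reach 100% at 50 or more reads. Reads are not scaled for depth, so equal reads mark a higher enrichment in the shallower GSK2879552 list.

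High-background intervals were shared almost completely from the side of the GSK2879552 list. Of 482 such intervals with GSK2879552, 465 had an untreated counterpart and 17 were gained. Of 701 in the untreated list, 443 had a counterpart with GSK2879552 and 258 were lost. Their summit reads are large by definition, since an interval must exceed its local background. The median was 42 summit reads in the shared high-background intervals of the GSK2879552 list and 59 in those of the untreated list.

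Gained and lost intervals also differed in how close they lay to the other list. The median distance was 16.7 kb from a gained interval to the nearest untreated interval, and 98.3 kb from a lost interval to the nearest GSK2879552 interval. A neighbour within 1 kb was found for 278 gained intervals (3.80%) and 404 lost intervals (0.761%). Few gained or lost intervals thus lay beside an interval of the other list, and the untreated list, being longer, offers more neighbours.

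Where both lists had an interval, summit reads were mostly lower with GSK2879552. Over all 2577 shared pairs the median was 5 reads with GSK2879552 and 6 untreated, and the median log2 ratio of reads was −0.26. Weak pairs cannot show a large drop, because an interval of few reads drops out of the list. The comparison is therefore also given for low-background pairs with at least 15 untreated reads, which were chosen on the untreated value, so that a lower value with GSK2879552 is partly set by the choice.

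In those stronger pairs the median log2 ratio of reads varied with the kind of site, with overlapping ranges. At the 79 pairs with no RB interval the medians were 10 reads with GSK2879552 and 18 untreated. Their median log2 ratio was −0.85, against −0.81 for the depths and −0.60 for the background floors. Over all 1880 low-background pairs with no RB interval, not chosen by reads, it was −0.22. At the 123 pairs on RB sites found in C4-2 alone the medians were 14 reads with GSK2879552 and 22 untreated, with a median log2 ratio of −0.62. At the 17 pairs on RB sites found in both C4-2 and VCaP the medians were 13 reads with GSK2879552 and 22 untreated, with a median log2 ratio of −0.55. The interquartile ranges of these ratios overlapped between the site types, from −1.10 to −0.54 with no RB interval, −0.86 to −0.35 at RB sites of C4-2 alone and −1.10 to −0.35 at RB sites of both lines.

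Fold enrichment, which is set against each list's own background, was near level over all 2112 low-background pairs. The median log2 ratio of folds there was −0.05, and the fold was higher with GSK2879552 in 1000 pairs. In the pairs chosen for 15 or more untreated reads, the median folds with no RB interval were 6.83 with GSK2879552 and 10.4 untreated, and the fold was higher with GSK2879552 in 8 of 79 pairs. At RB sites found in C4-2 alone the median folds were 8.26 with GSK2879552 and 10.4 untreated, with 24 of 123 pairs higher with GSK2879552. At RB sites found in both lines they were 7.11 with GSK2879552 and 10.7 untreated, with 5 of 17 pairs higher with GSK2879552. These lower values share the limit of the choice just given. Fold also varies with depth, as said above, and these folds were not scaled for it. The part that the lower depth of the GSK2879552 list has in the lower folds was not tested. Over all 2577 pairs, where most intervals are weak, the fold was higher with GSK2879552 in 1202 (46.6%).

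High-background pairs had a ratio of reads closer to 1 than the ratio of depths. The 465 pairs had medians of 42 reads with GSK2879552 and 56 untreated, a median log2 ratio of −0.38. Their fold enrichment was nearly level, with medians of 5.17 with GSK2879552 and 5.19 untreated. The background floor, which holds both depth and fragment length, had a log2 ratio of −0.60 between the lists.

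**Figure D2:**
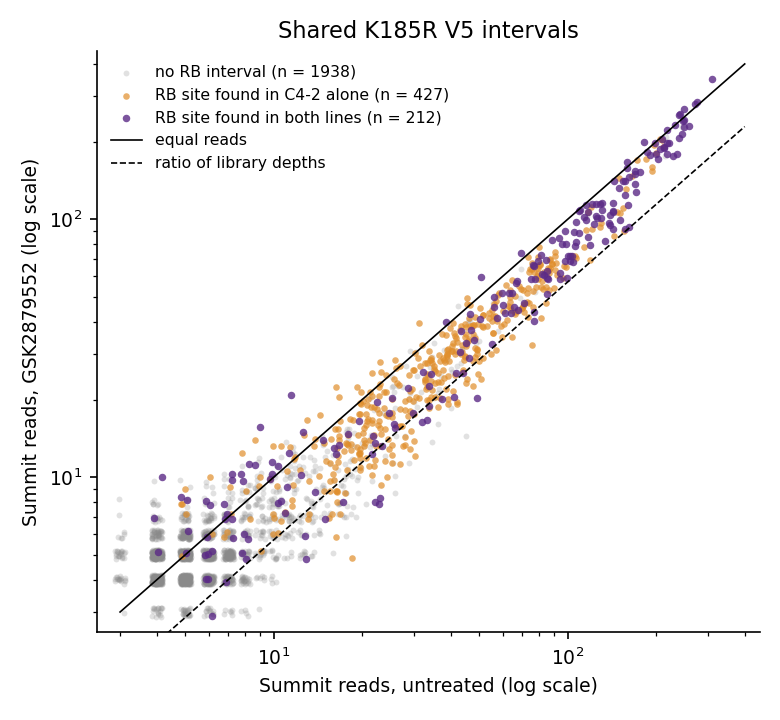
Summit reads of the 2577 shared pairs with GSK2879552 (vertical axis, log scale) and untreated (horizontal axis, log scale), coloured by RB interval, with points shifted slightly at random so that equal counts can be seen. Most pairs with many reads lie between the line of equal reads and the dashed line of the depth ratio, 0.572.

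RB intervals of C4-2 lay at a larger share of the GSK2879552 list. Of its intervals, 771 (7.79%) overlapped a C4-2 RB interval, against 980 of the untreated list (1.76%). The number was thus lower and the share higher with GSK2879552. By class, RB intervals were met by 132 gained intervals (1.80%, Wilson interval 1.52 to 2.13), 339 lost intervals (0.638%, 0.574 to 0.710) and 639 shared intervals of the GSK2879552 list (24.8%, 23.2 to 26.5). Taken over all read numbers, RB overlap was thus most frequent among the shared intervals. It also rose with summit reads: 0.855% of low-background GSK2879552 intervals of 3 to 5 reads lay at RB, and 76.2% of those of 15 to 19 reads. The share of shared intervals at RB was 10.8% without intervals of high background and 75.1% at −log10 q of at least 5, and in both cases it was above that of gained (1.71% and 19.7%) and lost intervals (0.424% and 7.92%). Here both lists were filtered first and the classes drawn again, which left 213 gained and 684 shared intervals at that q. A gained interval can then have a counterpart that was filtered out.

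The shares of gained and lost intervals lay further apart at RB sites found in both cell lines than at those of C4-2 alone. The sites of both lines were met by 77 gained intervals (1.05%, 0.842 to 1.31) and 98 lost intervals (0.185%, 0.151 to 0.225), while RB sites found in C4-2 alone were met by 55 gained intervals (0.751%, 0.578 to 0.976) and 241 lost intervals (0.454%, 0.400 to 0.515). Among low-background intervals with at least 10 summit reads, 16 of 33 gained intervals (48.5%, 32.5 to 64.8) and 69 of 584 lost intervals (11.8%, 9.44 to 14.7) lay at a C4-2 RB interval. At RB sites of both lines these numbers were 7 of 33 gained intervals (21.2%, 10.7 to 37.8) and 8 of 584 lost intervals (1.37%, 0.696 to 2.68). The same number of reads marks a higher enrichment in the shallower GSK2879552 list, so these are not classes of equal strength.

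From the side of the RB sites, the 2 kinds of site differed. Of the 5420 RB sites found in both lines, 302 (5.57%, 4.99 to 6.21) had a V5 interval with GSK2879552 and 324 (5.98%, 5.38 to 6.64) untreated. Of the 3726 RB sites found in C4-2 alone, 521 (14.0%, 12.9 to 15.1) had one with GSK2879552 and 715 (19.2%, 18.0 to 20.5) untreated. The ratio of GSK2879552 to untreated was 0.932 (0.797 to 1.09) at RB sites of both lines and 0.729 (0.651 to 0.816) at those of C4-2 alone, against 0.178 for the whole lists. The ranges of these ratios are not Wilson intervals. They treat the counts of the lists as independent, although 223 sites of both lines and 463 of C4-2 alone were counted in both lists. The number of RB sites with a V5 interval thus differed less between the lists than the number of intervals did. Without intervals of high background the ratio at RB sites of both lines was 1.08, so no direction is given there.

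At low-background RB sites the numbers were level for the sites of both lines. Of 5233 such sites, 175 (3.34%, 2.89 to 3.87) had a V5 interval with GSK2879552 and 173 (3.31%, 2.85 to 3.83) untreated. These were partly different sites: 76 had an interval with GSK2879552 only, 74 untreated only, and 99 in both lists. At low-background RB sites of C4-2 alone, 3476 in number, 418 (12.0%, 11.0 to 13.1) had a V5 interval with GSK2879552 and 571 (16.4%, 15.2 to 17.7) untreated, and 55 had one with GSK2879552 only, 208 untreated only and 363 in both lists. At high-background RB sites, 230 of 437 (52.6%) had an interval with GSK2879552 and 295 (67.5%) untreated.

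**Figure D3:**
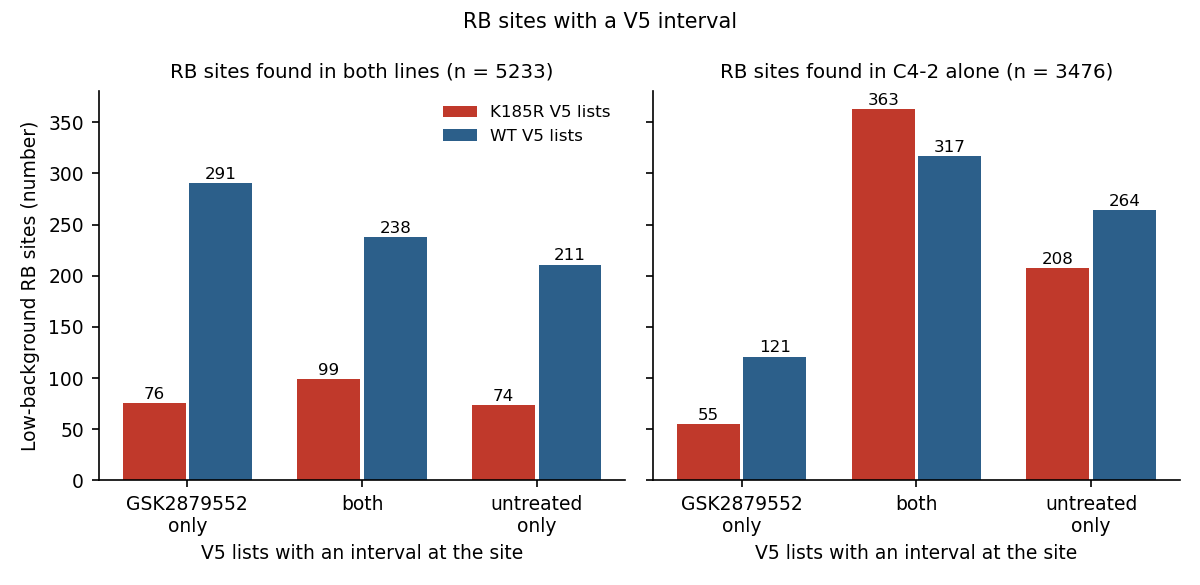
Number of low-background C4-2 RB sites (vertical axis) with a V5 interval in the GSK2879552 list only, in both lists or in the untreated list only (horizontal axis), for K185R (red) and WT (blue) lists. For RB sites of both lines (left) the K185R bars are 76, 99 and 74, and for RB sites of C4-2 alone (right) 55, 363 and 208.

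Among low-background RB sites, those with a V5 interval in both lists were the strongest in RB itself. At low-background sites of both lines, the median RB fold was 9.10 where both V5 lists had an interval, 6.74 where only the GSK2879552 list did, 6.76 where only the untreated list did, and 5.92 where neither did. Median RB summit reads in the same 4 classes were 38, 18, 21 and 14. Sites with an interval in 1 V5 list alone thus had nearly the same RB strength whichever list it was. With all backgrounds the order did not hold at sites of both lines, where the median RB fold was 5.85 for both V5 lists, 6.71 for GSK2879552 only, 5.85 for untreated only and 5.91 for neither. At low-background sites of C4-2 alone the median RB folds were 8.16 for both lists, 6.27 for GSK2879552 only, 6.24 for untreated only and 5.35 for neither.

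The shares were also set against RB strength. Low-background RB sites of both lines were divided into 4 bins of nearly equal number by −log10 q. From the weakest to the strongest bin, a V5 interval was present at 0.917%, 1.68%, 2.91% and 7.87% with GSK2879552 and at 1.07%, 1.30%, 2.22% and 8.64% untreated. For RB sites of C4-2 alone they stood at 2.88%, 2.19%, 7.48% and 35.6% with GSK2879552 and 3.34%, 4.60%, 13.2% and 44.5% untreated. The strongest bin had the highest share in each list, while the weakest bin of the C4-2 sites with GSK2879552 lay above the next one. In each of the 4 bins of the sites of C4-2 alone the GSK2879552 share was the lower one, while for the sites of both lines it was higher in 2 bins and lower in 2.

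WT cells, C4-2 carrying a tetracycline-controlled wild-type E2F1, were grown in the same serum without doxycycline and given the same dose of GSK2879552 or none. Among RB sites of both lines, 529 low-background sites (10.1%, 9.32 to 11.0) had a V5 interval with GSK2879552 and 449 (8.58%, 7.85 to 9.37) untreated, against 175 and 173 in K185R. At RB sites of C4-2 alone the WT numbers were 438 with GSK2879552 and 581 untreated, close to the K185R numbers of 418 and 571. Of the whole GSK2879552 list, 7.79% of 9899 intervals lay at a C4-2 RB interval in K185R and 38.7% of 2805 in WT, and of the untreated list 1.76% of 55681 in K185R and 8.17% of 15099 in WT. The shares by class are to be read beside those of the whole lists. The WT lists were also shallower, at 0.716 reads per kilobase with GSK2879552 and 1.21 untreated, against 1.02 and 1.79 in K185R. Of all gained intervals, 1.80% lay at a C4-2 RB interval in K185R (1.52 to 2.13) and 22.2% in WT (20.4 to 24.2). Of lost intervals, 0.638% did in K185R (0.574 to 0.710) and 3.89% in WT (3.58 to 4.22). The lists being 1 per group, the difference between K185R and WT was not tested.

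The other V5 lists show how far gained and lost intervals recur. Of the 6 other V5 lists, 3 had GSK2879552 (K185R with doxycycline, WT, and WT with doxycycline) and 3 did not, where doxycycline was given at 0.25 ug/ml for 3 days. In none of these 6 were 72.5% of gained intervals (5309), 74.5% of lost intervals (39550) and 35.3% of shared intervals (909) found. Most gained and lost intervals were thus in a single V5 list of the 8, and gained and lost intervals were alike in this respect. Intervals in all 6 others numbered 0 among the gained, 6 among the lost and 422 among the shared.

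Away from RB intervals, gained and lost intervals recurred at nearly the same rates. They were found in the WT GSK2879552 list at 0.695% of gained and 0.610% of lost intervals, and in the WT untreated list at 4.39% of gained and 4.37% of lost intervals. Any other GSK2879552 list held 2.53% of gained and 2.28% of lost intervals away from RB. Any other list without GSK2879552 held 25.1% of gained and 24.0% of lost intervals away from RB. The 2 classes thus differed little in either kind of list away from RB, and the lists without GSK2879552 are the longer ones.

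At RB intervals the classes parted. The WT GSK2879552 list held 51.5% of the gained intervals at RB and 23.9% of the lost ones, and the WT list with doxycycline and GSK2879552 held 52.3% of the gained and 27.1% of the lost. In the WT untreated list the shares were 45.5% of the gained and 49.3% of the lost, and in the WT doxycycline list 29.5% of the gained and 53.1% of the lost. The K185R lists with doxycycline held fewer gained than lost intervals: the one with GSK2879552 held 6.82% of the gained and 11.5% of the lost intervals, and the one without held 12.1% of the gained and 30.4% of the lost.

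The gap in the WT GSK2879552 list was smaller in narrower selections. For low-background intervals at any C4-2 RB interval, that list held 53.2% of the gained (44.5 to 61.8) and 34.3% of the lost (28.1 to 41.1). At RB sites of both lines with all backgrounds it held 53.2% of the gained (42.2 to 64.0) and 38.8% of the lost (29.7 to 48.7). Under both limits together, low-background intervals at RB sites of both lines, the WT GSK2879552 list held 54.7% of the gained (75 intervals) and 53.0% of the lost (66 intervals), and the WT list with both agents held 45 of the gained and 31 of the lost. The WT untreated list held 30 of these gained and 34 of these lost intervals. In this last selection the shares of gained and lost intervals in the WT GSK2879552 list differed by less than counting error.

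Counted over lists, 86 of the 132 gained intervals at RB (65.2%) were in another GSK2879552 list, against 147 of the 339 lost ones (43.4%). In any other list without GSK2879552 were 76 of the gained (57.6%) and 236 of the lost (69.6%). In the WT pair, the 132 gained intervals at RB fell into 22 found with GSK2879552 only, 14 untreated only, 46 in both and 50 in neither. The 339 lost intervals at RB fell into 23 with GSK2879552 only, 109 untreated only, 58 in both and 149 in neither.

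**Figure D4:**
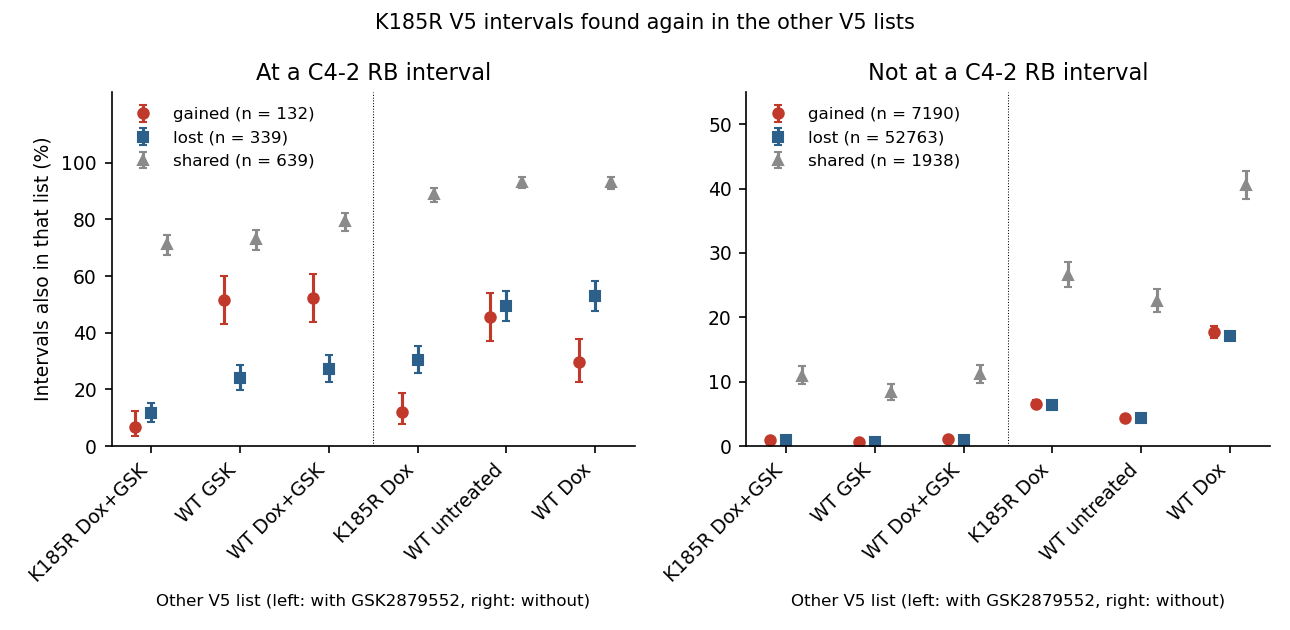
Share of gained, lost and shared K185R intervals (vertical axis, percent, 95% Wilson intervals) found in each of the other 6 V5 lists (horizontal axis, lists with GSK2879552 left of the dotted line), at C4-2 RB intervals (left) and elsewhere (right). At RB, gained intervals are found more often than lost ones in the WT lists with GSK2879552 (51.5% against 23.9%, and 52.3% against 27.1%), and elsewhere the 2 classes lie close together.

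The same can be counted from the RB side, at low background. Of the 76 sites of both lines with a V5 interval in K185R cells given GSK2879552 only, 55.3% had one in WT cells given GSK2879552 and 38.2% in untreated WT cells. Of the 74 sites with one in untreated K185R cells only, 48.6% had one in WT cells given GSK2879552 and 56.8% in untreated WT cells. Of the 99 sites with one in both K185R lists, 86.9% had one in WT cells given GSK2879552 and 93.9% in untreated WT cells. Among low-background RB sites of C4-2 alone, the 55 with a V5 interval in K185R cells given GSK2879552 only had one in 49.1% of cases in WT cells given GSK2879552 and 50.9% in untreated WT cells. The 208 with one in untreated K185R cells only had one in 21.2% of cases in WT cells given GSK2879552 and 49.0% in untreated WT cells.

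Single regions show what stands behind these counts. Regions are given in hg19 coordinates, and within each class they are the strongest by −log10 q at low background, 3 at and 3 away from C4-2 RB intervals, and the strongest of high background. The strongest at RB sites of both lines were added after their values were seen. No sequence was analysed, so whether a named region lies in repeat sequence was not checked.

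The leading gained interval at RB was at chr5:118604241-118604506 (fold 9.24, 11 summit reads, which scale to 19.2 at the depth of the untreated list). It overlapped RB in both cell lines and was present in 8 of the 10 lists, missing only from the K185R lists without GSK2879552. The gained interval at chr1:213188785-213188988 had a fold of 9.03 and 12 reads, at an RB site of C4-2 alone, and the other V5 lists with it were WT with doxycycline, with GSK2879552 and with both. The gained interval at chr16:28962042-28962320 had a fold of 8.48 and 13 reads, at an RB site of both lines, and no other K185R list had it. A further one at an RB site of both lines, at chr4:83934016-83934236, had a fold of 8.41 and 12 reads and was in 8 lists, all 4 WT lists among them. Each of these 4 regions was thus also held by WT lists.

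Away from RB the strongest gained interval was in no other list. It was at chr5:46352601-46352842 (fold 8.38, 18 reads, which scale to 31.5 at the untreated depth) on a background 7.03 times the floor. The gained interval at chr12:106750084-106750378 (fold 9.25, 12 reads) was also in both K185R lists with doxycycline and in the WT doxycycline list. The interval at chr7:21511190-21511373 (fold 8.61, 12 reads) was also in both WT lists with doxycycline. The strongest gained interval of high background, at chr9:66784305-66784562, had a fold of 6.73 and 19 reads and was in no other list.

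Lost intervals reached higher folds, but these folds come from lists of unequal depth and were not scaled for it. At RB, the one at chr9:136240437-136240721 had a fold of 14.1 and 21 untreated reads, which scale to 12.0 reads at the depth of the GSK2879552 list. It was in 4 other V5 lists, among them K185R with doxycycline and GSK2879552, and in neither WT list with GSK2879552. The lost interval at chr4:6513455-6513730 (fold 10.4, 21 reads) was in the same V5 lists. The one at chrY:13711017-13711264 (fold 9.63, 24 reads) was in 7 of the 10 lists, both lists with doxycycline and GSK2879552 among them. All of these were RB sites of C4-2 alone.

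At RB sites of both lines the strongest lost interval was at chr22:18883666-18884101 (fold 6.49, 19 reads in untreated cells). The next was at chr17:45212908-45213277 (fold 7.04, 16 reads). Both were also in the K185R list with doxycycline and GSK2879552. The lost interval at chr9:79186678-79186882 had a fold of 7.79 and 12 reads in untreated cells and lay at a strong RB site, whose RB fold was 19.4. It was present in the WT GSK2879552 list and in neither K185R list with GSK2879552.

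Away from C4-2 RB the strongest lost interval was at chrY:58865938-58866191 (fold 11.6, 31 untreated reads), and it overlapped RB in VCaP. The lost interval at chr2:232443588-232444074 had a fold of 11.5 and 25 untreated reads, and all other V5 lists held it, the 3 with GSK2879552 included. A further such interval was at chrY:58830315-58830559 (fold 10.3, 25 reads). The strongest lost interval of high background was at chrY:13861924-13862220 (fold 6.69), with 53 untreated reads, which scale to 30.3 at the depth of the GSK2879552 list. Both lists with doxycycline and GSK2879552 held it.

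The strongest shared intervals were present in nearly every list. At RB, the one at chr9:44070568-44070909 had a fold of 29.0 and 77 reads with GSK2879552, against a fold of 31.6 and 98 reads untreated, and all 10 lists held it. The one at chr7:61055550-61055944 had a fold of 21.1 and 57 reads with GSK2879552, against 24.7 and 77 reads untreated. The one at chr9:70076589-70076915 had a fold of 21.5 and 45 reads with GSK2879552, against 22.3 and 56 reads untreated. All of these had a lower fold with GSK2879552, and the folds were not scaled for depth. Their local backgrounds in that list were 9.37, 9.67 and 6.35 times the floor in the order given, and 9.37 and 9.67 lie just under the limit of 10 for high background.

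The interval at chr9:44070568-44070909 was also the strongest shared one at RB sites of both lines, and the next 2 there had a higher fold with GSK2879552. At chr22:18879856-18880181 the fold was 16.1 with 36 reads in GSK2879552 cells, against 15.1 with 48 reads untreated. At chr8:141521920-141522212 the fold was 13.3 with 20 reads in GSK2879552 cells, against 6.33 with 11 reads untreated. The one on chromosome 8 had more reads in the shallower list, and both regions were in all 10 lists. Over all 212 shared pairs at RB sites of both lines, the fold was higher with GSK2879552 in 102.

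Away from RB, 3 strong intervals were common to all 8 V5 lists and absent from both RB lists. At chr2:236211281-236211591 the fold was 16.8 with 30 reads in GSK2879552 cells, against 20.2 with 38 reads untreated. At chr17:867068-867373 it was 14.8 with 27 reads in GSK2879552 cells, against 17.4 with 41 reads untreated. At chr21:32114575-32114885 it was 15.1 with 22 reads in GSK2879552 cells, against 17.0 with 25 reads untreated. These regions carried V5 intervals in every treatment without an RB interval of either line. The strongest interval of high background, at chr1:121483984-121485502, had 343 reads with GSK2879552 and 302 untreated, the highest summit of each list.

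The ratio of list lengths was similar across most chromosomes. Over the 22 autosomes and X, the GSK2879552 list was between 0.161 (chromosome 20) and 0.202 (chromosome 21) times as long as the untreated list, with a median of 0.177. Chromosome Y stood apart, with 75 intervals in GSK2879552 cells and 212 in untreated cells, a ratio of 0.354. Of the 75, 69 were shared and 40 had high background. High-background intervals were also frequent on chromosomes 16 (18.2% of the GSK2879552 list there and 4.94% of the untreated list), 21 (17.9% and 4.32%) and 10 (12.1% and 3.10%), and chromosome 13 had none in either list.

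**Figure D5:**
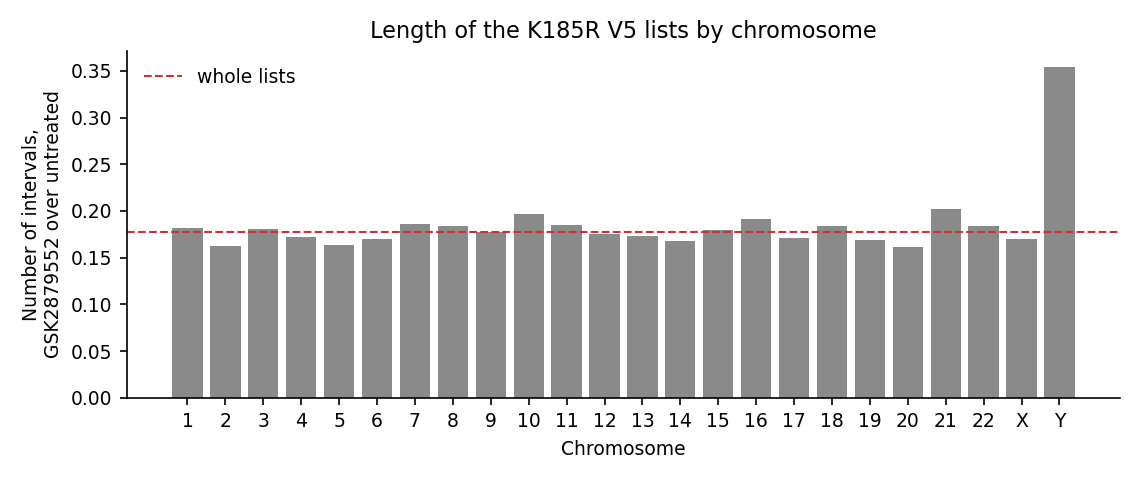
Number of K185R V5 intervals with GSK2879552 divided by the number untreated (vertical axis), for each chromosome (horizontal axis), with the ratio of the whole lists as a dashed line. The autosomes and X lie between 0.161 and 0.202, near 0.178 for the whole lists, and chromosome Y is at 0.354.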

How the data were processed

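The 19 libraries of the series fall into 10 groups, each with 1 deposited list of intervals. Per the submitters' processing notes, MACS2 2.1.0, BWA 0.7.9a, SAMtools 1.2 and FastQC 0.11.9 were used with the build hg19. Not given in the sources used here are their settings, the treatment of duplicate reads and any control library. Each deposited interval carries the authors' score, fold enrichment and −log10 p and q, which were used to describe and rank intervals within a list. Fold enrichment is a ratio of summit reads to local background, with 1 read added to both.

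Summit reads and local background were solved from the deposited fold and −log10 p, since MACS2 adds 1 read to both terms and takes p from a Poisson distribution. Recomputed −log10 p differed by at most 0.00016 in any list. The solver and the overlap counts were checked on simulated data. The floor of a list is the lowest background that 5 or more of its intervals had in common. Depth is the floor divided by the smallest interval width. High background is at least 10 times the floor.

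Lists were compared by 1-base overlap with Python 3.11.15, NumPy 2.4.6, pandas 2.3.3 and SciPy 1.17.1, and figures were drawn with matplotlib 3.10.9. Intervals named in the text are the 3 strongest of each class by −log10 q at low background at and away from RB, and the strongest of high background. Reads from PCR without molecular identifiers are not independent molecules. The comparison, the RB site types and the alternatives were chosen with earlier results of these data known. Nearby genes and sequences were not analysed here, because the gene tables at hand were of another build than the intervals.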

Additional observations from a re-analysis of the deposited data

Results flagged for a closer look

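At RB sites found in both cell lines the K185R and WT pairs had opposite signs. With GSK2879552 the share of these sites with a V5 interval minus the untreated share was −0.406 percentage points in K185R and 0.941 percentage points in WT. At low-background RB sites the differences were 0.038 points in K185R and 1.53 points in WT, so the opposite sign did not hold there. Each pair has 1 list per group, and the difference between the pairs was not tested.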

How the results depend on the processing

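The GSK2879552 list was the shorter one under the 4 alternatives tried, and C4-2 RB sites with a V5 interval, both kinds together, were fewer with it under the 4 tried. In all, 31 of 42 values moved beyond their counting interval. The length ratio was 0.253 at −log10 q of at least 5, 0.171 without high background, 0.198 in covered bases and 0.302 with the untreated list at the depth of the GSK2879552 list. In the order −log10 q of at least 5, no high background, 50% overlap of both, summits within 100 bases and the 1000 strongest, the shared part was 76.3%, 22.4%, 20.5%, 21.3% and 61.5% of the GSK2879552 list and 19.4%, 3.84%, 3.65%, 3.79% and 61.5% of the untreated list. In the same order without the last, C4-2 RB sites with a V5 interval were 6.64%, 4.18%, 5.57% and 7.45% with GSK2879552 and 8.71%, 5.36%, 7.64% and 9.76% untreated. With the classes drawn again under each setting, 19.7% of gained intervals lay at RB at the stricter q and 1.23% by 50% overlap. Of lost intervals, 7.92% did at the stricter q, 0.424% without high background and 0.453% by 50% overlap, and of shared intervals 75.1%, 10.8% and 20.3%. At RB sites of both lines the ratio of GSK2879552 to untreated was 0.858 to 1.08. That is within its counting interval, which ignores that the same sites are counted in both lists. The ratio passed 1 without high background, so no direction holds there. At RB sites of C4-2 alone it was 0.647 by 50% overlap and otherwise 0.666 to 0.729. These ratios by site type were added after seeing the data. No paired analysis was possible because each group has 1 list and no test was made. Intervals of 5 or fewer summit reads, most of both lists, limit what can be seen: an interval missing from the shallower list may lie under its threshold.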
